A study of Mus musculus with 32 samples.

Results

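The blood-brain barrier genes examined were Cldn5, Ocln, Tjp1, Mfsd2a, Slc2a1, Abcb1a, Cdh5, Plvap, Pecam1 and Esam, 10 of the 33280 genes in each count table, chosen by symbol as genes that brain endothelial cells are known for. RNA was sequenced from whole brain tissue and from sorted subdural CNS-associated macrophages (sdCAMs, the macrophages of the leptomeninges and the spaces around vessels) of 8 wild-type C57BL/6JCrl mice. 4 mice were given vehicle (CTL, aqueous hydroxypropyl-β-cyclodextrin) and 4 BLZ945, an inhibitor of the CSF-1 receptor kinase that depletes macrophages, by gavage at 200 mg per kg a day for 7 days, starting as young adults of both sexes. 8 weeks later, when depleted macrophages had been replaced, every mouse, CTL included, underwent thrombin-induced occlusion of the middle cerebral artery, and the hemisphere with the occlusion (ipsilateral) and the other one (contralateral) were taken 1 day after it. No group lacked the stroke, so the contralateral hemisphere is the reference within a mouse. The sdCAM gate was Ly6C- Ly6G- CD11c- CD45+ CD11b+ CD206+ on brain labelled as devoid of choroid plexus, and all libraries carry the same batch label.

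Tissue was represented by 4 libraries for each treatment and hemisphere, with 9288717 to 12781505 counts each. The sdCAM libraries numbered 4 contralateral and 3 ipsilateral for each treatment, with 7397393 to 11081409 counts. The ipsilateral sdCAM libraries of mice A3 and C2 held 54055 and 55155 counts and were left out, the labels mentioning 2 samples with degraded RNA. For mouse A3 the tissue sample titles and the column names give opposite hemispheres, and the titles, which match the library numbers, were followed. All 10 genes passed the filter on low counts in both tables. Values are CPM, a gene's counts relative to library size after scaling with edgeR's trimmed mean of M-values, done separately for tissue and sdCAMs, and 3 counts, taken as the limit of a single library, correspond to 0.235 to 0.406 CPM. A gene is called where its edgeR quasi-likelihood p, Benjamini-Hochberg adjusted over all genes tested, is under 0.05 (two-sided). ± is the SD over libraries for CPM and the SE for log2 fold changes. This SE is approximate, taken as the absolute log2 fold change divided by the square root of the F statistic of its test.

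Brain endothelial cells form the blood-brain barrier. Tight junctions, of which claudin-5 (Cldn5) and occludin (Ocln) are transmembrane strands and ZO-1 (Tjp1) the scaffold beneath them, seal the cleft between neighbouring cells, on top of adherens junctions built on VE-cadherin (Cdh5) and of the adhesion molecules PECAM-1 (Pecam1, CD31) and ESAM (Esam). Transport is selective: GLUT1 (Slc2a1) carries glucose inward, MFSD2A (Mfsd2a) carries lysophospholipids with omega-3 fatty acids and restrains the formation of caveolae, and P-glycoprotein (Abcb1a) pumps lipophilic compounds out. PLVAP (Plvap) forms the diaphragms of fenestrae and caveolae and is typical of vessels without a barrier, such as those of the choroid plexus. Opening of this barrier after ischaemia is a known part of stroke. ZO-1 and GLUT1 are made by many other cells too, and Abcb1a has a close paralogue, Abcb1b, from which short reads are separated only where the sequences differ.

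Promoter sequence was available for 6 of the 10 genes in the RefSeq table (GRCm38.p6). The 250 bases upstream of the annotated start are printed for Cldn5 and Slc2a1, which had the highest levels per length in tissue and passed the hemispheric test in sdCAM but not in tissue libraries, and for Mfsd2a, the one gene lower on the ipsilateral side of tissue in 7 of 8 mice. They lie at chr16:18776597-18776846 (plus strand), chr4:119108495-119108744 (plus strand) and chr4:122961189-122961438 (minus strand), and are written 5′ to 3′ on the strand of the gene. Capitals mark matches, sought on both strands and allowed to overlap, to the ETS core GGAA and to the hypoxia response core ACGTG.
Cldn5: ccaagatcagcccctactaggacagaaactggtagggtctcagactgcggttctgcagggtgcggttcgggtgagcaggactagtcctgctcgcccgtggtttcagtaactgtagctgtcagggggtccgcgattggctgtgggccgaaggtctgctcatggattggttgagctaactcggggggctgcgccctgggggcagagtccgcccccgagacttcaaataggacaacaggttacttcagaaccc
Slc2a1: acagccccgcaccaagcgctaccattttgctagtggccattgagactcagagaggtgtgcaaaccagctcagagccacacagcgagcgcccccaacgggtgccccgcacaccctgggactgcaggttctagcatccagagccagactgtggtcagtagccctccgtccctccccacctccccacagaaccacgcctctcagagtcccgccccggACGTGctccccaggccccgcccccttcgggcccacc
Mfsd2a: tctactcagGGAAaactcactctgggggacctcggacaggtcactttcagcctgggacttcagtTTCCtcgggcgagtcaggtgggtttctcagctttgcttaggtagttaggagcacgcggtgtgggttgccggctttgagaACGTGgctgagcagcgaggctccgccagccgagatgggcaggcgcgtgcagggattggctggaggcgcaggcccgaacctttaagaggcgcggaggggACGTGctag
The Cldn5 window held neither motif, the Slc2a1 window held 1 match to ACGTG and none to GGAA, and the Mfsd2a window held 2 matches to each. Of the 32851 promoter windows of the same length in the table, 93.5% held GGAA and 16.6% held ACGTG. The TCF/LEF core CTTTGA, sought because Wnt signalling maintains the barrier, was present in 13.8% of windows. It had 1 match in the window of Mfsd2a, 2 in that of Abcb1a and none in those of Cldn5, Slc2a1, Tjp1 and Ocln. These matches are letters in a window and were not tested for binding.

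In brain tissue, 2 of the 3 endothelial adhesion genes, Cdh5 and Pecam1, passed the test between hemispheres over both treatments. None of the tight junction genes passed. VE-cadherin (Cdh5) and PECAM-1 (Pecam1) rose in the ipsilateral hemisphere, by 1.69-fold and 1.58-fold over both treatments. Esam, at 1.30-fold higher, and Mfsd2a, at 1.25-fold lower, did not pass in this fit but did with the mouse as a block. The claudin-5, occludin, ZO-1, GLUT1, P-glycoprotein and PLVAP genes lay within 0.14 of 0 on the log2 scale.

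Cdh5 was at 20.8, 24.2, 16.9 and 17.9 CPM in the contralateral tissue of CTL mice A2, A3, A4 and B1 and at 24.2, 39.5, 23.8 and 40.0 CPM in their ipsilateral tissue. In BLZ945 mice C2, C3, C4 and D1 it was at 20.7, 23.7, 18.6 and 22.2 CPM contralaterally and at 46.9, 29.8, 33.9 and 42.7 CPM ipsilaterally. Ipsilateral tissue was higher in 8 of 8 mice, by 1.17-fold in A2 to 2.27-fold in C2, and the hemispheres overlapped only where A2 and A4 ipsilateral lay below A3 contralateral. The means were 19.9 ± 3.29 and 31.9 ± 9.09 CPM in CTL and 21.3 ± 2.19 and 38.3 ± 7.84 CPM in BLZ945 tissue (n = 4 each). The log2 fold change was 0.67 ± 0.19 in CTL (edgeR adjusted p = 0.225, and 0.0191 with the mouse as a block), 0.85 ± 0.19 in BLZ945 (adjusted p = 0.0287) and 0.76 ± 0.13 over both (adjusted p = 0.00253).

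Pecam1 was at 25.1, 29.7, 28.9 and 26.3 CPM in contralateral and 30.9, 49.0, 32.5 and 46.6 CPM in ipsilateral CTL tissue of the same mice. BLZ945 mice had 21.96, 28.2, 21.03 and 28.3 CPM contralaterally and 47.9, 38.9, 31.7 and 53.1 CPM ipsilaterally. Every ipsilateral library was above every contralateral one, an arrangement that 0.817% of the genes tested showed in that direction. The log2 fold change was 0.53 ± 0.17 in CTL (edgeR adjusted p = 0.402, blocked 0.0362), 0.79 ± 0.17 in BLZ945 (adjusted p = 0.0279) and 0.66 ± 0.12 over both treatments (adjusted p = 0.00424).

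Esam, at 15.7 to 23.3 CPM contralaterally and 18.8 to 32.1 CPM ipsilaterally, was higher on the ipsilateral side in 7 of 8 mice, mouse A4 being the exception. Its log2 fold change was 0.29 ± 0.17 in CTL (adjusted p = 0.926, blocked 0.450), 0.48 ± 0.17 in BLZ945 (edgeR adjusted p = 0.243, blocked 0.0237) and 0.38 ± 0.12 over both (adjusted p = 0.105, blocked 0.00728). DESeq2 gave 0.0491 for the last of these.

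Mfsd2a was lower ipsilaterally in 7 of 8 mice, and Abcb1a in 5 of 8. CTL mice A2, A3, A4 and B1 had 46.1, 31.6, 24.2 and 30.5 CPM contralaterally and 31.8, 32.7, 23.7 and 28.9 CPM ipsilaterally. In BLZ945 mice C2, C3, C4 and D1 the contralateral values were 36.5, 37.1, 34.1 and 28.1 CPM and the ipsilateral ones 26.6, 22.6, 28.6 and 20.8 CPM. The BLZ945 hemispheres overlapped only at D1 contralateral and C4 ipsilateral, and the CTL hemispheres overlapped widely, with A2 contralateral far above the rest. Its log2 fold change was -0.18 ± 0.17 in CTL (edgeR adjusted p = 0.9992, blocked 0.758), -0.46 ± 0.17 in BLZ945 (adjusted p = 0.266, blocked 0.0161) and -0.32 ± 0.12 over both (adjusted p = 0.189, blocked 0.0140). The difference between the treatments was itself -0.28 ± 0.24 (interaction adjusted p = 0.9999).

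The remaining members differed little between the hemispheres of tissue. Cldn5 was at 25.5 to 40.7 CPM contralaterally and 27.9 to 46.6 CPM ipsilaterally, and although it was higher ipsilaterally in 8 of 8 mice, by 1.04-fold to 1.24-fold, its log2 fold change over both treatments of 0.14 ± 0.13 did not pass (edgeR adjusted p = 0.716, blocked 0.211). Tjp1 was at 96.2 to 128.7 and 111.8 to 126.2 CPM, Slc2a1 at 155.9 to 192.5 and 151.9 to 209.7 CPM, and Plvap at 10.5 to 14.2 and 10.7 to 18.01 CPM. Abcb1a ranged from 29.1 to 39.1 CPM contralaterally and 24.4 to 34.6 CPM ipsilaterally. Ocln had the widest spread for its level, 5.88 to 15.1 and 6.62 to 16.3 CPM, and was higher ipsilaterally in 4 of 8 mice. For Tjp1 and Slc2a1, an interval of 2 SE on each side of the log2 fold change over both treatments spanned -0.012 to 0.20 and -0.065 to 0.22, whereas for Ocln it spanned -0.42 to 0.44.

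**Figure D1:**
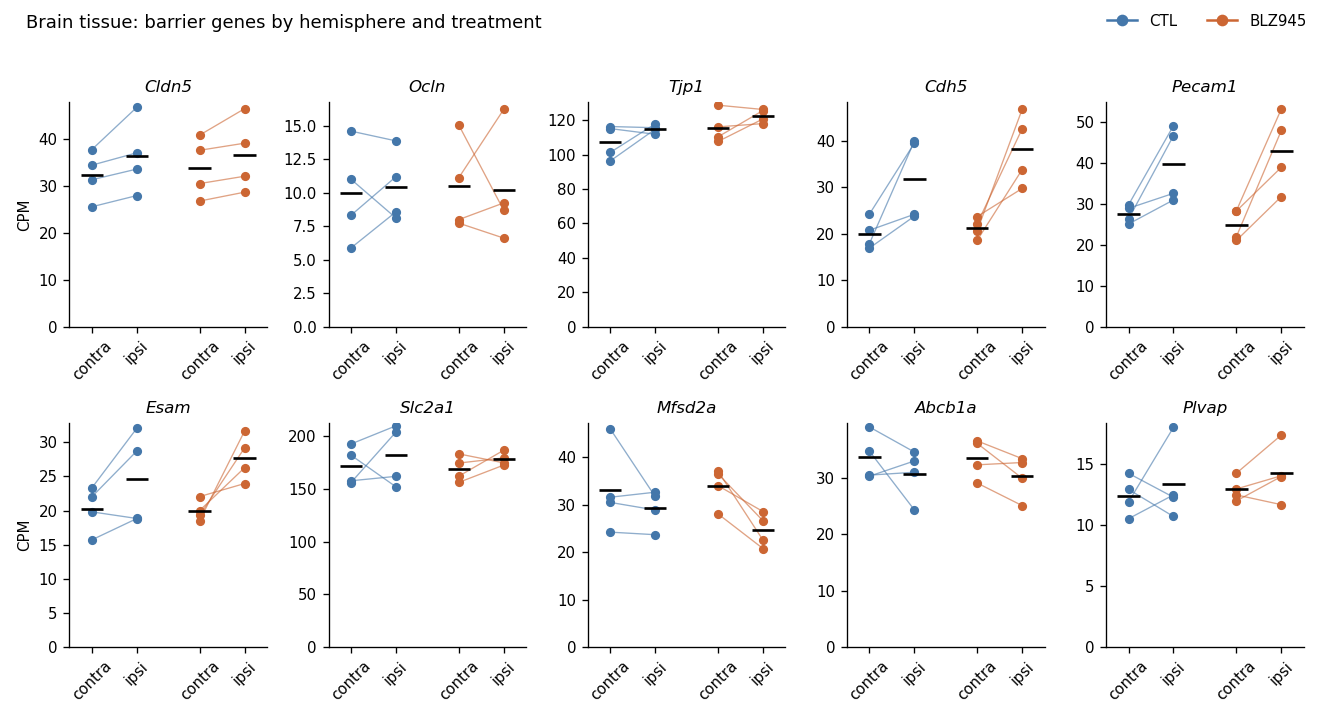
Levels of the 10 barrier genes in brain tissue. The y axis is CPM from 0 upward, each point is 1 library, lines join the hemispheres of a mouse, black bars are group means (n = 4), and blue is CTL and orange BLZ945. Pecam1 was higher on the ipsilateral side in all 8 mice without overlap, Cdh5 in all 8 with an overlap at 1 contralateral library, and Cldn5 in all 8 by at most 1.24-fold.

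Over the members, 0 of 10 were called in CTL tissue, where 0.485% of the 18968 genes tested were called higher. At an unadjusted edgeR p under 0.05 were 2 members, beside 1182 genes in all, and DESeq2 called 0 members, beside 162 genes in all. In BLZ945 tissue 2 were called higher, against 1.26% of all genes, and over both treatments 2, against 2.53%. With the mouse as a block these counts became 2 (background 1.14%), 3 higher (2.69%) with 1 lower (1.45%), and 3 higher (4.06%) with 1 lower (3.02%). The members' median log2 fold change over both treatments was 0.11, beside -0.0091 for all genes. The calls of Cdh5 and Pecam1 over both treatments rested on the assignment of mouse A3: with its hemispheres as the column names give them, the adjusted p became 0.224 and 0.265 and no member was called, while without mouse A3 both remained called. In BLZ945 mice alone, leaving out C2 or D1 ended both calls and leaving out C4 that of Cdh5.

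**Figure D2:**
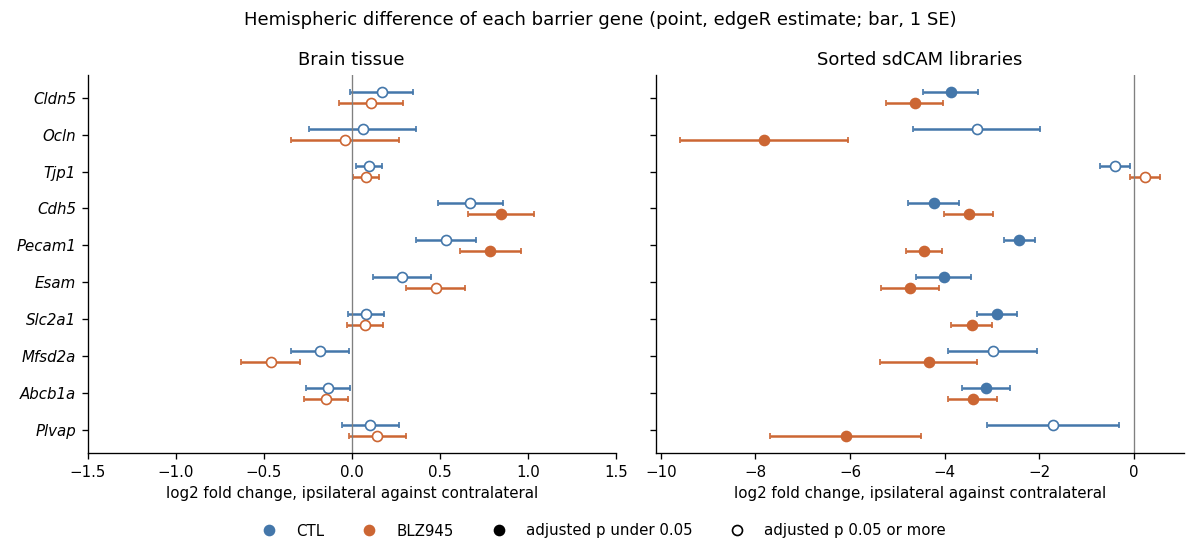
Log2 fold change of each barrier gene between ipsilateral and contralateral hemispheres in tissue (left) and sdCAM libraries (right), which have different x scales. Points are edgeR estimates, bars 1 SE, blue CTL and orange BLZ945, and filled points have an adjusted p under 0.05. In tissue Cdh5 and Pecam1 of BLZ945 mice are the filled points, and in sdCAM libraries all members but Tjp1 lie left of -1.5.

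In tissue the members differed among themselves relative to other endothelial genes. Over 20 pan-endothelial genes (receptors, transcription factors and surface proteins shared by vessels of all organs), the median log2 fold change over both treatments was 0.26, with 2 called higher and 0 lower (7 and 1 with the mouse as a block). Those called without the block were Ecscr, a regulator of endothelial migration, at 1.11 ± 0.22 (edgeR adjusted p = 0.00755) and Nos3, the endothelial nitric oxide synthase, at 0.58 ± 0.14 (adjusted p = 0.0293). Expressed as log2 CPM minus the mean log2 CPM of these 20 genes, Cdh5 went from 0.81 ± 0.16 contralaterally to 1.29 ± 0.24 ipsilaterally in CTL tissue and from 0.88 ± 0.090 to 1.41 ± 0.090 in BLZ945 tissue. Mfsd2a went the other way, from 1.51 ± 0.32 to 1.20 ± 0.21 and from 1.54 ± 0.25 to 0.79 ± 0.41, as did Abcb1a, from 1.57 ± 0.13 to 1.27 ± 0.13 and from 1.53 ± 0.070 to 1.09 ± 0.18. The group means of Ocln, Tjp1, Slc2a1 and Plvap were also lower ipsilaterally in both treatments, and those of Pecam1 and Esam higher. The log2 fold change of Abcb1a itself was -0.14 ± 0.088 over both treatments (edgeR adjusted p = 0.545). The ratios were not tested. Cldn5 was at 1.495 ± 0.14 and 1.495 ± 0.21 in CTL and at 1.53 ± 0.19 and 1.34 ± 0.13 in BLZ945 tissue.

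Of the other barrier gene groups in tissue, the 8 vesicle and caveola genes had the highest median, 0.40 over both treatments, with 2 called higher (5 with the block). The 2 were Ehd2, a stabiliser of caveolae, at 0.72 ± 0.14 (edgeR adjusted p = 0.00673) and Ehd4, a related endocytic ATPase, at 0.50 ± 0.10 (adjusted p = 0.00909). None of the 17 other junction genes measured and none of the 18 genes of the Wnt and Norrin pathway, which maintains the barrier, was called, at medians of 0.027 and -0.0032, but with the block 1 Wnt and Norrin gene was called lower. The 20 other barrier transporters held 1 call (3 higher and 3 lower with the block), Slc3a2, the heavy chain of the large neutral amino acid transporter, at 0.30 ± 0.075 (adjusted p = 0.0379). Pericyte markers had a median of -0.064 with 0 of 11 called (1 lower with the block), and smooth muscle markers 0.25 with 1 of 6, Des (2 with the block). In bulk tissue, fewer or more endothelial cells and less or more RNA per cell cannot be told apart. Choroid plexus markers summed to 219.8 to 6336 CPM among the tissue libraries. With their level as a covariate Cdh5 was also called in CTL tissue (adjusted p = 0.0395), and Esam over both treatments (0.0479).

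Per kilobase of exon (union of GENCODE M21 exons), Slc2a1 was the highest member in contralateral tissue at 48.6 ± 4.10 CPM per kb (n = 8), followed by Cldn5 at 23.3 ± 3.86, Mfsd2a at 14.9 ± 2.95 and Tjp1 at 14.3 ± 1.29. Esam (7.01 ± 0.837), Plvap (6.37 ± 0.626), Abcb1a (6.14 ± 0.650), Cdh5 (4.91 ± 0.639) and Pecam1 (4.20 ± 0.523) followed, and Ocln was lowest at 2.42 ± 0.790 CPM per kb. Ranges of neighbours in this order overlapped except between Slc2a1 and Cldn5 and between Tjp1 and Esam. In ipsilateral tissue Cdh5, at 8.35 ± 2.04 CPM per kb, stood above Plvap and Abcb1a, and Pecam1, at 6.64 ± 1.43, above Abcb1a, with overlapping ranges. The genes whose pattern over the 16 tissue libraries was most like the members' mean were Pdgfrb (Pearson r = 0.901), Tuba1c (0.896), Rab20 (0.891), Itprid2 (0.881) and Tgfbr2 (0.876), given as a description over 14307 genes compared, with libraries that share mice and hemispheres.

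Sorted sdCAM libraries showed a far larger hemispheric difference in the same genes. 9 of the 10 members fell on the ipsilateral side over both treatments, by 8.99-fold (Slc2a1) to 47.6-fold (Ocln), and Tjp1 did not pass the test. Contralateral sdCAM libraries held most barrier genes at levels above those of whole brain tissue, although the gate selected CD45+ CD206+ macrophages and removed Ly6C+ cells. Markers of border macrophages, which summed to 21.4 to 44.1 CPM in tissue, reached 1658 to 6603 CPM in contralateral and 4929 to 10470 CPM in ipsilateral sdCAM libraries, and microglia markers, at 401.6 to 1010 CPM in tissue, reached 7754 to 29770 CPM, so markers of the labelled cell type were found in every library together with those of other cells.

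Cldn5 was at 184.3, 556.9, 400.0 and 163.1 CPM in contralateral sdCAM libraries of CTL mice A2, A3, A4 and B1 and at 345.3, 397.4, 462.6 and 273.2 CPM in those of BLZ945 mice C2, C3, C4 and D1. Ipsilateral libraries held 40.9, 19.97 and 5.90 CPM in A2, A4 and B1 and 15.97, 10.8 and 17.7 CPM in C3, C4 and D1. The lowest contralateral library was 163.1 CPM and the highest ipsilateral one 40.9 CPM. The log2 fold change was -3.88 ± 0.58 in CTL (edgeR adjusted p = 0.00434), -4.64 ± 0.61 in BLZ945 (adjusted p = 0.000962) and -4.26 ± 0.42 over both (adjusted p = 2.69e-05).

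Ocln reached 18.8, 145.1, 184.2 and 53.6 CPM in the contralateral CTL libraries in the same order of mice and 114.5, 117.1, 261.1 and 95.3 CPM in the BLZ945 ones. On the ipsilateral side it had no count in A4, B1 and D1, 1 count in C3, 1.88 CPM in C4 and 30.1 CPM in A2, the one mouse in which it was higher ipsilaterally. The log2 fold change was -3.33 ± 1.35 in CTL (edgeR adjusted p = 0.206), -7.82 ± 1.78 in BLZ945 (adjusted p = 0.0195) and -5.57 ± 1.11 over both (adjusted p = 0.00381). The call in BLZ945 mice ended without C3 (edgeR adjusted p = 0.112), C4 (0.0739) or D1 (0.0783), and the estimate over both treatments ran from -10.52 to -5.05 when 1 mouse was left out. Without A2 the CTL estimate became -13.2 (adjusted p = 0.00981), a fit to ipsilateral libraries at 0.

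Tjp1 stood apart from the other junction genes among the members. Contralateral libraries held 70.5, 71.4, 60.9 and 65.1 CPM in CTL and 63.7, 67.1, 28.4 and 74.8 CPM in BLZ945 mice, and ipsilateral ones 44.1, 55.5 and 51.9 CPM and 47.6, 55.0 and 102.7 CPM. C4 contralateral was the lowest and D1 ipsilateral the highest, and the hemispheres overlapped. Its log2 fold change was -0.41 ± 0.32, 0.23 ± 0.32 and -0.089 ± 0.22 in CTL, BLZ945 and both (edgeR adjusted p = 0.516, 0.728 and 0.866). Scaled to the border macrophage markers in place of all genes, a choice made after seeing the data that moved the median of all genes from -0.16 to -1.35, Tjp1 was at -1.30 (adjusted p = 0.0105), close to that median, and the calls over all genes went from 912 higher and 2054 lower to 11 and 7591.

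Cdh5 was at 22.5, 36.5, 28.2 and 17.1 CPM contralaterally in CTL and 32.2, 33.4, 19.4 and 21.6 CPM in BLZ945 mice, against 1.51, 0.778 and 1.82 CPM and 2.80, 1.38 and 2.88 CPM ipsilaterally. All ipsilateral values rested on 6 to 28 counts and lay at or below 2.88 CPM, and the lowest contralateral library, B1, was at 17.1 CPM. The log2 fold change was -4.23 ± 0.54 in CTL (edgeR adjusted p = 0.00335), -3.49 ± 0.52 in BLZ945 (adjusted p = 0.00196) and -3.86 ± 0.37 over both (adjusted p = 2.69e-05).

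Pecam1 was at 119.5, 194.1, 166.6 and 111.3 CPM contralaterally in CTL mice and 161.1, 283.3, 192.3 and 129.7 CPM in BLZ945 mice. Ipsilateral libraries held 37.5, 21.01 and 24.1 CPM in CTL and 7.31, 7.03 and 12.1 CPM in BLZ945 mice, and the hemispheres did not overlap. The hemispheric log2 fold change was -2.42 ± 0.33 in CTL (edgeR adjusted p = 0.00335) and -4.44 ± 0.37 in BLZ945 (adjusted p = 4.34e-05). Their difference was -2.01 ± 0.44 (unadjusted p = 0.000378 in the edgeR model across all genes, adjusted p = 0.694), and DESeq2 gave an adjusted p of 0.0251. Between the treatments on the ipsilateral side, the log2 fold change of Pecam1 for BLZ945 against CTL was -1.64 ± 0.35 (adjusted p = 0.308 with edgeR and 0.00557 with DESeq2), so the call depended on the tool. PECAM-1 is also carried by platelets, whose 5 markers measured summed to 12.97 to 113.1 CPM on the ipsilateral and 8.62 to 50.4 CPM on the contralateral side, and their part in this result was not tested.

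Esam followed Cldn5 closely, with 123.6 to 439.4 CPM contralaterally and 4.51 to 26.2 CPM ipsilaterally, and a log2 fold change over both treatments of -4.38 ± 0.42 (edgeR adjusted p = 2.69e-05). Slc2a1 ranged from 548.4 CPM (B1) to 1816 CPM (A3) contralaterally and from 97.3 CPM (C3) to 168.0 CPM (A2) ipsilaterally, at -3.17 ± 0.30 (adjusted p = 2.68e-05). Abcb1a ranged from 49.6 to 138.5 CPM and from 4.02 to 17.3 CPM, at -3.27 ± 0.36 (adjusted p = 6.08e-05). For all 3 the hemispheres did not overlap, and CTL and BLZ945 mice were each called.

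Mfsd2a was at 66.7, 108.6, 96.9 and 28.3 CPM contralaterally in CTL and 54.0, 102.7, 103.9 and 31.3 CPM in BLZ945 mice. Ipsilateral libraries held 11.5, 16.5 and 0.536 CPM in CTL and 3.53, 0.126 and 7.001 CPM in BLZ945 mice, the B1 and C4 values resting on 5 and 1 counts. Both hemispheres varied widely between mice without overlapping. Its log2 fold change was -2.99 ± 0.94 in CTL (edgeR adjusted p = 0.106, DESeq2 0.00840), -4.34 ± 1.02 in BLZ945 (edgeR adjusted p = 0.0233) and -3.66 ± 0.70 over both (adjusted p = 0.00269). In BLZ945 mice alone this call ended without C3 (adjusted p = 0.132) or C4 (0.113).

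Plvap was at a few counts in most libraries. It was at 2.54, 2.61, 1.10 and 0.219 CPM contralaterally in CTL mice and at 6.21, 149.2, 21.3 and 1.64 CPM in BLZ945 mice C2, C3, C4 and D1. Every ipsilateral library was at or below 1.13 CPM, and that of C4 had no count. C3 contralateral alone held 1444 of the Plvap counts, and the highest of the other libraries held 211. The ipsilateral fall over both treatments, -3.90 ± 1.04 (edgeR adjusted p = 0.0198), did not pass with the mouse as a block (0.0638) or without C3 (0.123), A4 (0.0621) or C4 (0.0502). In BLZ945 mice alone it was -6.09 ± 1.599 (adjusted p = 0.0374, blocked 0.0865), and it ended without any of C3, C4 and D1. Between treatments on the contralateral side the log2 fold change of Plvap for BLZ945 against CTL was 4.77 ± 1.30 (edgeR adjusted p = 0.759, DESeq2 0.0116). C3 and C4 contralateral were also among the 3 libraries in which choroid plexus markers exceeded 10000 CPM. The other one, A4 contralateral, held Plvap at only 1.10 CPM, and a link between the 2 was not tested.

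**Figure D3:**
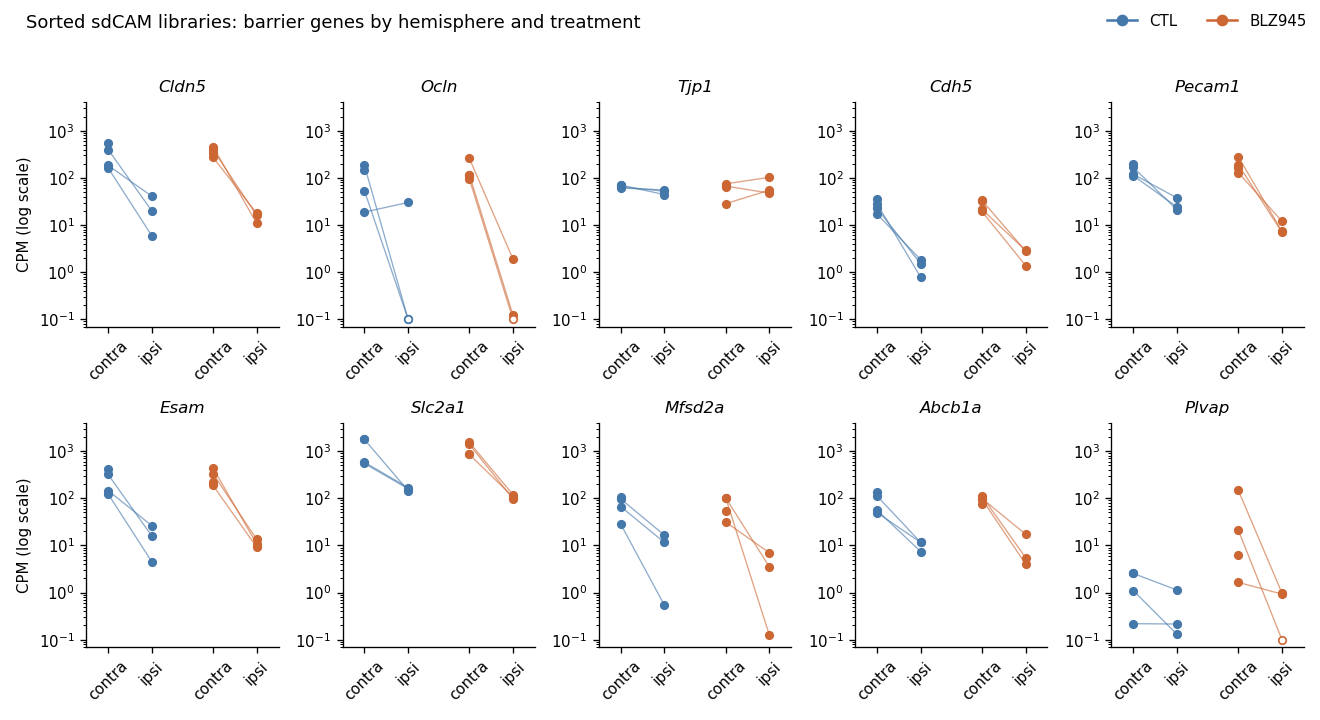
Levels of the 10 barrier genes in sdCAM libraries. The y axis is CPM on a log scale, each point is 1 library (4 contralateral and 3 ipsilateral for each treatment), lines join the hemispheres of a mouse, open points at 0.1 mark libraries with no count, and blue is CTL and orange BLZ945. The hemispheres of Cldn5, Cdh5, Pecam1, Esam, Slc2a1, Mfsd2a and Abcb1a do not overlap, Tjp1 is level, and Plvap is high in 1 library at 149.2 CPM.

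In CTL sdCAM libraries 6 of 10 members were called lower ipsilaterally (Cldn5, Cdh5, Pecam1, Esam, Slc2a1 and Abcb1a), where 2.36% of 18297 genes were. In BLZ945 libraries 9 of 10 were, against 4.41% of all genes, and over both treatments 9 of 10, against 11.2%. With the mouse as a block, over the 6 mice with both hemispheres, Plvap was lost and the counts became 8 (background 3.73%) and 8 (7.06%). For 7 members every ipsilateral library lay below every contralateral one, as for 4.28% of all genes. The median log2 fold change over both treatments was -3.76 for the members and -0.16 for all genes. Without the 3 contralateral libraries rich in choroid plexus markers (A4, C3 and C4), chosen after seeing the data, the counts were 6, 6 and 8. The shares of all genes given above come from fits that kept those libraries, so these counts cannot be set against them.

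Genes of other vascular and brain cells also fell in these libraries. Of 20 pan-endothelial genes 18 fell over both treatments and none rose, at a median of -4.41, with Clec14a at -7.59 ± 0.94 (edgeR adjusted p = 0.000219) and Tie1, an endothelial receptor tyrosine kinase, at -6.23 ± 0.57 (adjusted p = 2.00e-05). All 6 smooth muscle markers fell, with Myh11, a contractile myosin, at -4.57, Des, the filament protein desmin, at -4.55 and Acta2, smooth muscle actin, at -4.397, as did 9 of 11 pericyte markers (median -2.47), all 7 oligodendrocyte markers (median -3.08), 6 of 8 choroid plexus markers (median -4.39) and 5 of 7 astrocyte markers (median -1.90). Border macrophage markers went the other way, with 8 of 10 higher at a median of 0.99, Cd163 at 1.16 ± 0.35 (adjusted p = 0.0346) and Lyve1 at 1.12 ± 0.29 (adjusted p = 0.0180), and 2 of 8 microglia markers rose. With the mouse as a block 4 of 10 border macrophage markers were called higher and 4 of 7 oligodendrocyte markers lower, with 8 of 8 for the choroid plexus. Fewer fibroblast (1 of 8, median -0.61), neuron (2 of 7, median -1.82) and platelet markers (1 of 5, median -1.245) were called lower. In the blocked fit these 3 counts were 0, 1 and 0. In summed level, smooth muscle markers were at 837.7 to 4881 CPM contralaterally and 27.6 to 139.2 CPM ipsilaterally, oligodendrocyte markers at 668.2 to 6142 and 226.4 to 817.4 CPM, and choroid plexus markers at 209.3 to 56360 and 7.78 to 1812 CPM, up to 5.64% of a library labelled as free of choroid plexus. Neuron markers were low on both sides, at 13.5 to 97.2 and 1.51 to 28.02 CPM, beside 6718 to 9832 CPM in tissue. The part of these other cells in the members' difference was not tested.

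**Figure D4:**
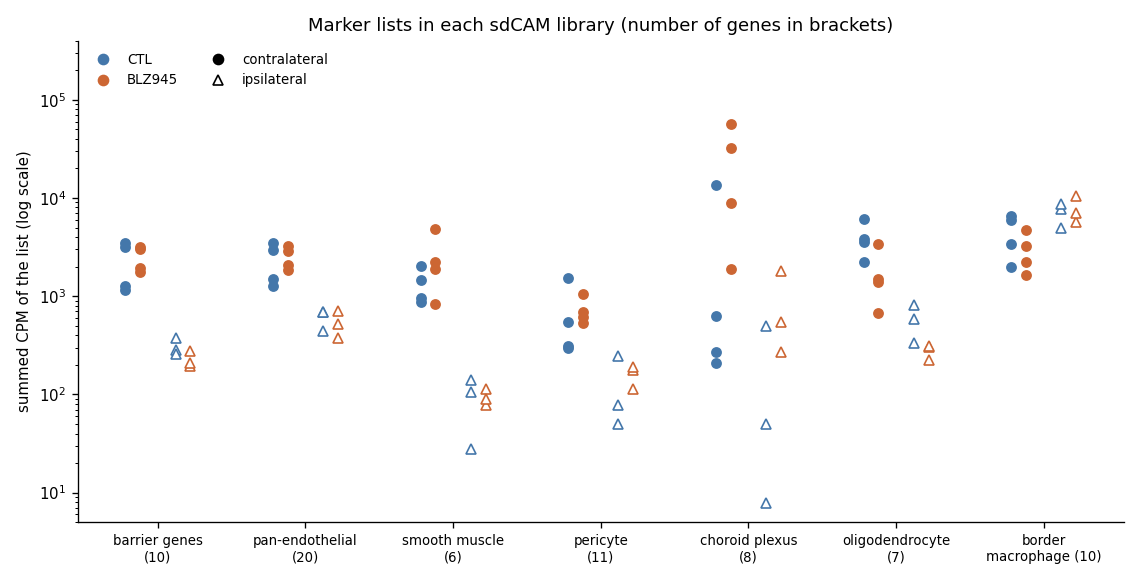
Summed CPM of marker lists in each sdCAM library, on a log scale. Filled circles are contralateral (n = 8) and open triangles ipsilateral libraries (n = 6), blue CTL and orange BLZ945. Barrier genes sum to 1166 to 3486 CPM contralaterally and 194.5 to 372.6 CPM ipsilaterally, and border macrophage markers, at 1658 to 6603 and 4929 to 10470 CPM, are higher ipsilaterally in every mouse with both hemispheres except A2.

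Among the other barrier groups, 9 of 20 transporters fell in sdCAM libraries and 1 rose, at a median of -1.33. With the mouse as a block 8 fell and 0 rose. The thiamine transporter Slc19a3 was at -6.33 ± 1.71 (edgeR adjusted p = 0.0244), Slc38a5 at -5.18 ± 0.62 and the organic anion transporter Slc22a8 at -4.90 ± 0.64 (edgeR adjusted p = 0.000106 and 0.000190). Of 17 other junction genes 5 fell at a median of -1.48, led by Lsr, a component of tricellular junctions, at -3.15 ± 0.36 (adjusted p = 8.24e-05). 12 of 18 genes of the Wnt and Norrin pathway fell at a median of -2.58 (9 with the block), among them the ligand Wnt7a at -7.53 ± 1.79 (edgeR adjusted p = 0.0163), the ligand Wnt7b at -5.77 ± 1.29 and their endothelial co-receptor Adgra2 at -5.35 ± 1.09 (adjusted p = 0.00922 and 0.00542). Of the caveola genes 6 fell, with Cavin2 at -4.60 ± 0.56 and Cav1 at -4.46 ± 0.66, and 2 rose.

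Levels of the members differed in proportion between the materials. In the contralateral hemisphere the mean level in sdCAM libraries over that in tissue was 13.6 for Esam, 12.1 for Ocln, 10.5 for Cldn5, 6.87 for Slc2a1 and 6.48 for Pecam1, but 2.74 for Abcb1a, 2.21 for Mfsd2a, 1.28 for Cdh5 and 0.563 for Tjp1. That of Plvap, 1.83, rested on C3: its median was 2.58 CPM in sdCAM libraries and 12.7 CPM in tissue. In the ipsilateral hemisphere no ratio exceeded 1: Slc2a1 was at 0.737, Cldn5, Ocln, Esam and Tjp1 at 0.501 to 0.518, Pecam1 at 0.439, Abcb1a at 0.313, Mfsd2a at 0.242, Cdh5 at 0.0531 and Plvap at 0.0407. CPM were scaled within each material, so these ratios are descriptions. Library preparation from sorted cells used amplified cDNA, and its part in the ratios was not tested.

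**Figure D5:**
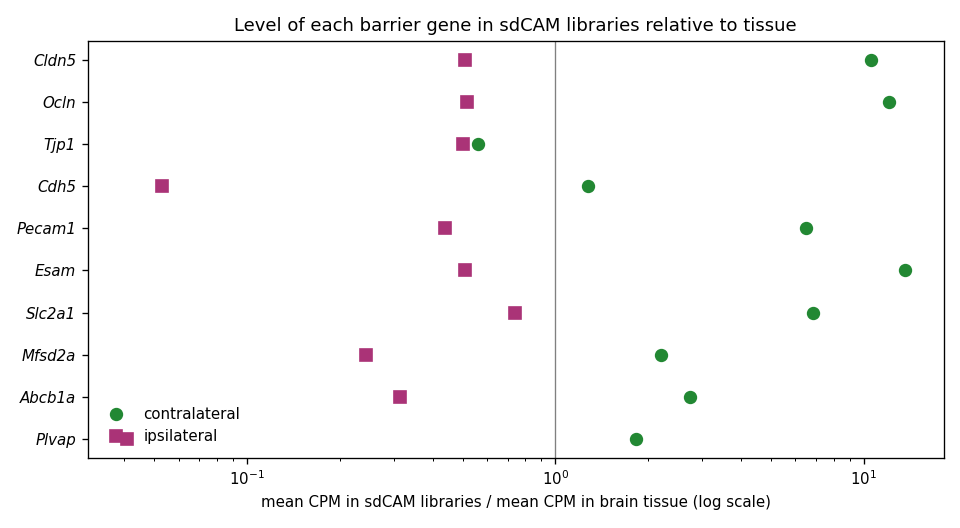
Mean CPM in sdCAM libraries divided by mean CPM in tissue for each barrier gene, on a log scale. Circles are the contralateral (8 libraries of each material) and squares the ipsilateral hemisphere (6 sdCAM and 8 tissue libraries), and the vertical line marks equal levels. Contralateral ratios run from 0.563 (Tjp1) to 13.6 (Esam), and all ipsilateral ratios lie below 1.

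Measured against the 20 pan-endothelial genes, Cldn5 and Esam differed little between hemispheres in BLZ945 mice, given like the rest as a description. The group means of Slc2a1, Tjp1, Abcb1a, Pecam1 and Plvap were higher ipsilaterally in both treatments, and those of Ocln and Mfsd2a lower. Log2 CPM in all such ratios carried a prior count of 2. Ipsilateral Plvap, at or below 1.13 CPM, and Ocln, with no count in A4, B1 and D1, lay where this prior weighs most. The ratios of these 2 genes therefore do not show a relative rise or fall. The group mean of Cdh5 was lower in CTL and higher in BLZ945 mice. Cldn5 stood 2.29 ± 0.17 log2 units above the mean of these genes in CTL contralateral, 2.33 ± 0.17 in BLZ945 contralateral and 2.33 ± 0.12 in BLZ945 ipsilateral libraries, and Esam at 1.92 ± 0.16, 1.95 ± 0.30 and 1.93 ± 0.37. In CTL ipsilateral libraries both spread widely, at 1.75 ± 1.15 and 1.30 ± 1.02. Slc2a1 went from 4.10 ± 0.27 to 4.95 ± 0.31 in CTL and from 3.96 ± 0.15 to 5.20 ± 0.47 in BLZ945 mice, and Tjp1 from 0.19 ± 0.72 to 3.31 ± 0.35 and from -0.39 ± 0.85 to 4.47 ± 0.61. Abcb1a went from 0.47 ± 0.12 to 0.99 ± 0.090 and from 0.39 ± 0.24 to 1.36 ± 0.94. The log2 fold change of Tjp1 itself was -0.089 ± 0.22 over both treatments, so its ratio rose with the fall of the reference genes. Within the contralateral libraries the members' sum was lowest in B1 (1166 CPM) and A2 (1263 CPM), where border macrophage markers were highest, and highest in A3 (3486 CPM).

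Per kilobase of exon, contralateral sdCAM libraries had Slc2a1 at 334.1 ± 147.7 and Cldn5 at 245.7 ± 95.7 CPM per kb (n = 8), then Esam at 95.3 ± 42.2, and Cdh5 was lowest at 6.27 ± 1.71. On the ipsilateral side (n = 6) Slc2a1 was at 37.8 ± 8.30, Cldn5 at 13.1 ± 8.52 and then Tjp1 at 7.62 ± 2.77, with Cdh5 and Plvap last at 0.443 ± 0.198 and 0.283 ± 0.251. Ranges of neighbours overlapped throughout both orders. Most like the members' mean over the 14 libraries were Pglyrp1 (Pearson r = 0.981), Ly6a (0.978), Epas1 (0.978), Ly6c1 (0.975) and Vwa1 (0.972) among 13818 genes compared, a description that includes the step between hemispheres. Ly6c1, which encodes part of the Ly6C antigen that the gate excluded, was at 205.1 to 1044 CPM contralaterally and 10.8 to 72.5 CPM ipsilaterally.

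The comparison of BLZ945 with CTL asks whether earlier depletion and replacement of macrophages altered these genes after stroke, and edgeR called no member. In tissue, BLZ945 against CTL gave log2 fold changes of -0.25 (Mfsd2a) to 0.27 (Cdh5) ipsilaterally and -0.14 (Pecam1) to 0.11 (Tjp1) contralaterally, with 0 of 10 members at an unadjusted p under 0.05 on either side or in the interaction, and 0 called by DESeq2. Over all genes 0% were called in these 3 comparisons by edgeR, with 858, 616 and 386 genes at an unadjusted p under 0.05 and 1, 0 and 0 called by DESeq2. In sdCAM libraries 0 members and 0% of all genes were called by edgeR in the same 3 comparisons. At an unadjusted p under 0.05 were 2 members ipsilaterally (Ocln and Pecam1), 1 contralaterally (Plvap) and 3 in the interaction (Ocln, Plvap and Pecam1), beside 1034, 1133 and 912 genes in all. DESeq2 called 1 member in each, Pecam1, Plvap and Pecam1, beside 128, 44 and 48 genes in all. The SE of these member differences ran from 0.073 to 0.31 in the 2 tissue comparisons and from 0.28 to 1.65 in the 2 sdCAM comparisons, so a p above the threshold does not show equal levels, least of all for Ocln and Plvap.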

How the data were processed

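RNA counts per gene, as deposited by the authors in 1 table each for tissue and sdCAMs, were used unchanged. Per the labels' processing notes and the study's methods, the authors used bcl2fastq 2.20, STAR 2.7.11a, featureCounts 2.0.8 and DESeq2 1.46.0. The methods name mm10 or GRCm39 as the genome, by date of experiment, and do not say which applies here. sdCAM cDNA was amplified by PCR without molecular identifiers, so limits from counts cover counting error only. The 10 members and the gene lists were chosen with earlier results of these data known.

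A gene was tested where its counts added up to at least 8 over the tissue or 7 over the sdCAM libraries. edgeR 4.0.16 (R 4.3.3, limma 3.58.1) was fitted once per material with 4 group means, TMM scaling and quasi-likelihood tests, and p-values were adjusted over all 18968 and 18297 genes. Hemispheres of a mouse are paired by design: the deviations of paired libraries from their group means correlated at 0.214 to 0.645 in 8 tissue pairs and 0.0451 to 0.191 in 6 sdCAM pairs. Fits with the mouse as a block are given where they changed a call of a member or moved a list's count by over 1.5 times. Other alternatives were DESeq2 1.42.0, its size factors, filters, leaving out each mouse, a fold threshold, all 16 sdCAM libraries and the hemispheres of A3 as in the column names. The script was tested on simulated counts. Named genes outside the members were taken from the 4 largest called changes of each list. The labels do not number extractions, so p-values measure the spread between these mice and libraries. Promoters are RefSeq windows of GRCm38.p6.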

Additional observations from a re-analysis of the deposited data

Results flagged for a closer look

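Ocln in the contralateral sdCAM library of BLZ945 mouse C4, at 261.1 CPM, stood far above the 3 other libraries of its group, at 95.3, 114.5 and 117.1 CPM. Plvap in the contralateral library of BLZ945 mouse C3, at 149.2 CPM, stood above 1.64, 6.21 and 21.3 CPM. These were the 2 of 60 groups of 4 libraries with a member library past Dixon's critical value (0.829 for 4 libraries), which chance exceeds in about 1 of 20 groups. The ipsilateral sdCAM groups, of 3 libraries each, were not examined in this way.

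The ipsilateral sdCAM libraries that were left out held member counts too. That of CTL mouse A3 held 23, of which 7 were Tjp1 and 5 Abcb1a, and that of BLZ945 mouse C2 held 30, of which 12 were Cdh5 and 7 Pecam1. At 54055 and 55155 counts in all, no level was read from them.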

How the results depend on the processing

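In tissue, fitting the mouse as a block raised the members called from 0 to 2 in CTL, from 2 to 4 in BLZ945 and from 2 to 4 over both treatments, while all genes called went from 93 to 250, from 258 to 785 and from 578 to 1344. With the hemispheres of A3 as in the column names the counts in BLZ945 and over both were 0 and 0, and Plvap turned to -0.24 in CTL and -0.046 over both on the log2 scale. Leaving out 1 mouse gave 0 to 2 members called in BLZ945 tissue. Alternatives chosen after seeing the data were a choroid plexus covariate, omission of libraries rich in its markers, and scaling to border macrophage markers. The covariate gave 1 member called in CTL tissue and turned Ocln to 0.13 in BLZ945 tissue.

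In sdCAM libraries, the replicate block ended the 2 Plvap calls and no other member's. DESeq2 called 1 member in the interaction, 1 for BLZ945 against CTL ipsilaterally and 1 contralaterally, where edgeR called 0, and more genes in all between hemispheres (1823 against 510 in CTL, 2518 against 1027 in BLZ945). Tjp1 in BLZ945 mice turned to -0.019 with all 16 libraries, -0.0046 without the libraries rich in choroid plexus markers and -1.25 with scaling to macrophage markers. With all 16 libraries, Cdh5 and Plvap were not called over both treatments (adjusted p = 0.0855 and 0.168 by edgeR). The causes were not tested.

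Signs that turned when 1 mouse was left out belonged to members that edgeR did not call. In tissue, Ocln ranged from -0.050 to 0.22 in CTL, -0.33 to 0.27 in BLZ945 and -0.13 to 0.17 over both, Plvap from -0.091 to 0.22 and Slc2a1 from -0.024 to 0.19 in CTL. In sdCAM libraries, Tjp1 ranged from -0.047 to 0.51 in BLZ945 and -0.23 to 0.049 over both, Ocln from -7.29 to 5.38 in the interaction and -7.17 to 5.60 for BLZ945 against CTL ipsilaterally, and Plvap there from -0.059 to 1.79. The Ocln reversals came without A2, whose ipsilateral library held 240 Ocln counts beside 0 to 15 in the other mice. Treatment differences not named here also changed sign 65 times in tissue and 31 times in sdCAM libraries, with adjusted p of at least 0.894 and 0.923 by edgeR or DESeq2.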
